A study of Homo sapiens with 6 samples.

Results

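The alkaline phosphatases of the human genome are encoded by 4 genes, ALPI for the intestinal isozyme, ALPP for the placental isozyme, ALPG for the germ-cell isozyme and ALPL for the tissue-nonspecific isozyme. The genes were picked by name from a deposited table of 58735 genes, and they were picked with the difference between the study's groups already known. Their levels and fold changes are therefore given as descriptions, with no p-value, and nothing is read from their direction or from their being called. The study sequenced mRNA of SW1990 cells, an established line labelled as pancreatic ductal adenocarcinoma, to find the genes whose expression differs under an inhibitor of DOT1L. DOT1L is the histone methyltransferase that modifies histone H3 over the bodies of transcribed genes, and EPZ-5676 is a small molecule that inhibits it. The treated group was 3 samples of cells given 5 µM EPZ-5676. The control group was 3 samples, which the sample characteristics call untreated and the treatment protocol describes as given the solvent DMSO in equal volume. Both groups were grown in DMEM with fetal bovine serum, and for how long the treated cells were exposed was not given in the sources used here. Nothing in the labels says that the samples of a group came from separate cultures, so a p-value below speaks of the spread of these samples alone, and that spread may be technical.

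Alkaline phosphatases are dimeric zinc enzymes that hang from the outer face of the plasma membrane by a glycosylphosphatidylinositol (GPI) anchor and remove phosphate from many small molecules. The tissue-nonspecific enzyme is known from bone, liver, kidney and neutrophils, where its substrates include inorganic pyrophosphate and pyridoxal phosphate, the circulating form of vitamin B6. The intestinal enzyme marks the brush border of enterocytes and detoxifies bacterial lipopolysaccharide, the placental enzyme is made by the syncytiotrophoblast, and the germ-cell enzyme by germ cells and germ-cell tumours. Placental-type isozymes are also known as ectopic products of some carcinomas.

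The intestinal, placental and germ-cell genes stand side by side on the long arm of chromosome 2, all on the plus strand (GRCh38). ALPP (ENSG00000163283) spans bases 232378534 to 232382889, ALPG (ENSG00000163286) spans 232406843 to 232410714 and ALPI (ENSG00000163295) spans 232456123 to 232460032. The longest annotated transcript of each has 11 exons, all of them with coding sequence. ALPL (ENSG00000162551) lies apart on the plus strand of chromosome 1, from 21509372 to 21578412, and its longest transcript has 12 exons, 11 of them coding. No other gene of the annotation overlaps ALPI, ALPG or ALPL. The antisense gene AC068134.1 overlaps ALPP, and it had 0 reads in all 6 libraries.

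The start regions of the 3 clustered genes are shown because the genes are copies of each other and share short runs of sequence there. Each sequence covers 250 bases before and 50 bases after the RefSeq transcription start (GRCh38.p14, plus strand): chr2:232455903-232456202 for ALPI, chr2:232378501-232378800 for ALPP and chr2:232406594-232406893 for ALPG. The gene starts given above are those of the deposited table and differ from the RefSeq starts. That of ALPP (232378534) lies inside the ALPP window, before the RefSeq start, so most of that window is within the gene's span. Capitals mark the runs of at least 10 bases that occur in all 3 sequences.
ALPI: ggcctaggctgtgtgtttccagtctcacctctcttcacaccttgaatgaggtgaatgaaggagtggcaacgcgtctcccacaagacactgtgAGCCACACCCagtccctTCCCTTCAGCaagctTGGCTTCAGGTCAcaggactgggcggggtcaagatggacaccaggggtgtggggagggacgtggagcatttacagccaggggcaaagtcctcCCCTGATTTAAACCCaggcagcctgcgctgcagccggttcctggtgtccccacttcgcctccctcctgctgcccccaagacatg
ALPP: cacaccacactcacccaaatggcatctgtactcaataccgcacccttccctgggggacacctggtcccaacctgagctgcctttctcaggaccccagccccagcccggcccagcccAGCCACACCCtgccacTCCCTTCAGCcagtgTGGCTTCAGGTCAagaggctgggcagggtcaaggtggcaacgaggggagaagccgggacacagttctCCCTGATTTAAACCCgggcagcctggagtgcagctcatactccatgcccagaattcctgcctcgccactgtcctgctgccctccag
ALPG: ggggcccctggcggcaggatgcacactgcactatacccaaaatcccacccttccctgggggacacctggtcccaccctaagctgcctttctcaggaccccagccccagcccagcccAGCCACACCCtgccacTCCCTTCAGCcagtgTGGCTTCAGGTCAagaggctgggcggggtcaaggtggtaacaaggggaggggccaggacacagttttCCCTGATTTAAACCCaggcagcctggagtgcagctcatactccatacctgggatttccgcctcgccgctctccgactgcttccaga
The capitals cover 48 bases of each sequence, in 4 runs that stand in the same order in all 3. The run AGCCACACCC begins at position -158 in ALPI and at -134 in ALPP and ALPG, counted from the transcription start. It occurs in 41 of the 35116 RefSeq start regions of this length. The run TCCCTTCAGC begins at -141 in ALPI and at -118 in the other two, and it occurs in 22 start regions. The longer runs TGGCTTCAGGTCA, at -126 in ALPI and -103 in the others, and CCCTGATTTAAACCC, at -34 and -36, each occur in 3 start regions, those of the 3 genes shown. In pairwise alignments, ALPP and ALPG were identical at 90.1% of aligned bases (255 of 283), ALPI and ALPP at 79.8% (201 of 252), and ALPI and ALPG at 78.3% (199 of 254). Gaps and unaligned ends are left out of these percentages.

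A search of both strands for short motifs described the same regions. The TATA box TATAAA was in none of the 3, against 11.5% of all start regions. The related letters TTTAAA, which lie within the last shared run, were at -28 in ALPI and at -30 in ALPP and ALPG, and occur in 12.2% of start regions. The nuclear receptor half-site AGGTCA, which lies within the third shared run, was at -119 in ALPI and at -96 in the other genes, against 13.8% of start regions. TTTAAA and AGGTCA were added after the data were seen and lie within shared runs, so their presence in all 3 windows was fixed in advance. The GC box GGGCGG was at -106 in ALPI and at -83 in ALPG and was not in the ALPP window, and 45.0% of start regions hold it. The E-box CACGTG (7.3% of start regions), the AP-1 site TGANTCA (7.7%), the cAMP response element core TGACGT (8.0%), the CDX site TTTATG (10.6%) and the GATA site AGATAA (10.3%) were in none of the 3 windows. RefSeq gives ALPL 3 starts, and none of its windows holds TTTAAA or AGGTCA. The window of the second ALPL start holds TATAAA at -29 and 4 copies of the GC box, that of the first holds the E-box, and that of the third the GATA site. These matches describe the letters of the windows alone.

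The libraries held 33970420 to 39749648 reads assigned to genes. Levels are given as counts-per-million (CPM), scaled to library size by the TMM method, or as CPM per kilobase of exons where genes are compared with each other. After a filter on low counts, 15496 genes were tested, and 2326 were higher and 2899 lower in the treated group at a Benjamini-Hochberg adjusted p under 0.05 by the edgeR quasi-likelihood test, 33.7% of them in all. The numbers became 838 and 863 when trends with transcript GC content and length were fitted in each library and removed, a correction that also removes any treatment effect following these properties. A correction for length alone gave 2783 higher and 2227 lower. Of the 10 ductal epithelial markers, the keratins KRT7, KRT8 and KRT18 had control means of 1883, 2658 and 1194 CPM, whereas CDH1, the epithelial cadherin, had 0 reads in all 6 libraries, and EPCAM (1.89 CPM) and KRT19 (0.430 CPM) were near 0. The data thus go in part against the labelled cell type. Of 10 acinar and endocrine markers, 7 had 0 reads in every library and none passed the filter.

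Control library 2 stood apart by transcripts of blood cells. HBB, a globin of red cells, had 8429 reads there and 0, 4, 0, 0 and 2 in the other libraries. PTPRC, the common leukocyte antigen, had 153 reads there, 8 in treated library 2 and 0 elsewhere. CSF3R, the receptor of the neutrophil growth factor G-CSF, had 112 reads there and 0 elsewhere. Of 22 blood-cell genes listed after these reads were seen, 17 were highest in control 2, 8 had reads in no other library and 1 was at 0 in all 6. The summed reads of the list were 15507 in control 2 and 1502 to 1881 in the others. Values that rest on this library are given with and without it below. In bulk RNA fewer cells of a type and less RNA per cell cannot be told apart, which holds for all levels given here.

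ALPI was the most abundant of the 4 genes and was lower in the treated cells. The control libraries had 96.2, 118 and 99.9 CPM of ALPI, and the treated libraries 41.9, 35.3 and 38.3 CPM. Every treated library lay below every control, and the highest of the 6 values was that of control 2. The group means were 105 ± 11.5 and 38.5 ± 3.32 CPM (SD, n = 3 each). The fitted log2 fold change, treated against control, was -1.44 ± 0.11 (SE), which is 2.72-fold lower. Without control 2 it was -1.33, and with the correction for GC content and length it was -1.84. These values rest on 3729 to 4111 reads per control library and 1237 to 1513 reads per treated library. ALPI ranked 1075 of 19951 protein-coding genes by CPM per kilobase in the controls, above 94.6% of them, and 2711 in the treated cells, above 86.4%. An intestinal brush-border enzyme was thus among the more abundant transcripts of these cells in both groups.

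ALPP, the placental gene, was also lower in the treated cells. Its control values were 25.4, 28.3 and 27.0 CPM, and its treated values 9.37, 7.84 and 9.91 CPM. The groups were apart in every library, with means of 26.9 ± 1.48 and 9.04 ± 1.08 CPM (SD, n = 3 each). The log2 fold change was -1.57 ± 0.16 (SE), or 2.97-fold lower. It was -1.52 without control 2 and -1.96 with the GC and length correction. Control libraries held 989 to 1008 reads of ALPP and treated libraries 275 to 392. In rank by CPM per kilobase ALPP stood above 81.0% of protein-coding genes in the controls and above 68.4% in the treated cells.

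ALPG, the germ-cell gene, was measured near the limit of detection. Control libraries had 23, 66 and 54 reads of ALPG, and treated libraries 29, 24 and 6. In CPM the controls were 0.578, 1.89 and 1.45 and the treated 0.934, 0.684 and 0.152, with means of 1.31 ± 0.667 and 0.590 ± 0.399 (SD, n = 3 each). The groups overlapped, since control 1 lay below treated libraries 1 and 2. The log2 fold change was -1.16 ± 0.59 (SE), and it ranged from -1.65 without treated 1 to -0.69 without treated 3. Without control 2 it was -0.77. Summed over libraries, ALPG had 143 control reads (1.32 reads-per-million, or RPM, of all reads, exact 95% Poisson interval 1.11 to 1.55) and 59 treated reads (0.543 RPM, interval 0.413 to 0.700). These intervals cover counting error only and leave out the spread between libraries.

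ALPL, the tissue-nonspecific gene, was close to absent from the libraries. It had 10 reads in control 2 and 0 in each of the other 5 libraries. It did not pass the filter, and no fold change is given. The 3 control libraries together held 108743626 reads, which puts ALPL at 0.0920 RPM, with an exact 95% Poisson interval of 0.0441 to 0.169. The treated count of 0 in 108700206 reads has an exact 95% Poisson upper limit of 0.0339 RPM, and the limit by the rule of 3 counts is 0.0276 RPM. These limits cover counting error only, and the control value rests on control 2 alone, so they do not compare the groups. The only library with reads of ALPL, a gene known from neutrophils, was the library with the blood-cell reads described above. There the neutrophil genes CXCR2, MNDA and CXCR1 had 45, 44 and 12 reads. Not all genes of the blood-cell list did so, since FCGR3B had 0 reads in every library and FPR1 had 18 in control 1 and 11 in control 2. The part of blood-cell RNA in the ALPL reads was not tested. Without control 2 the 4-gene set had no reads of ALPL.

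Of the 4 genes, 3 passed the filter on low counts. ALPI and ALPP are among the genes called lower in this contrast, which make up 18.7% of all genes tested, and ALPG is not. Since the genes were picked with this contrast known, that count is no test result. ALPI and ALPP also had every treated library below every control, as 24.2% of all genes tested did. With the GC and length correction, 5.57% of genes were called lower and 5.41% higher. These shares are given for scale alone.

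**Figure D1:**
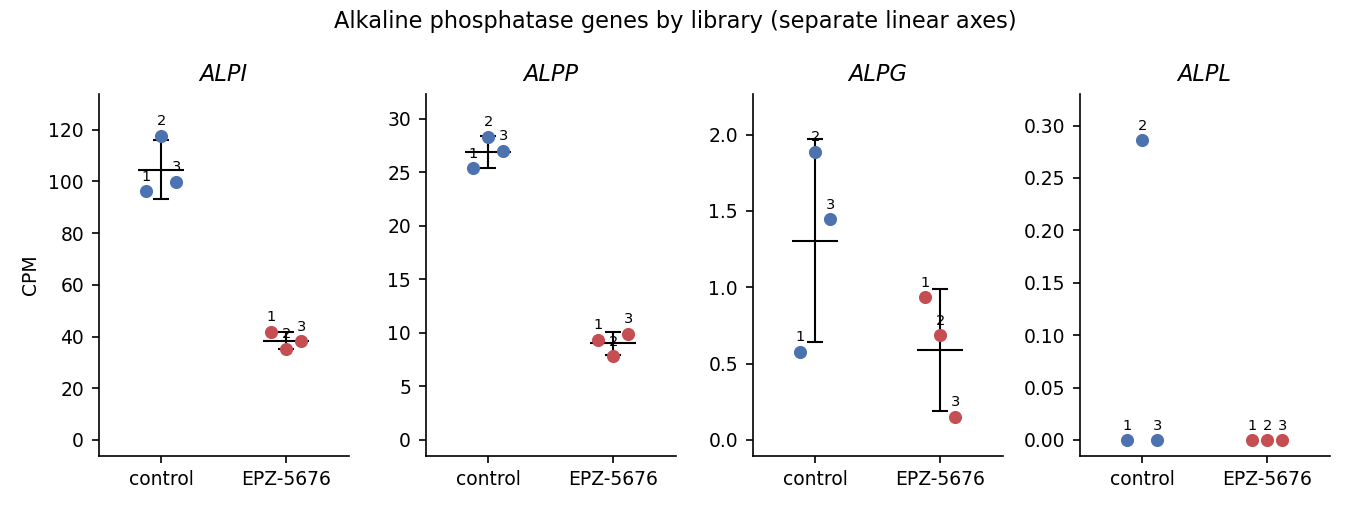
Level of each of the 4 genes in each library, as TMM-scaled CPM on a linear axis that starts at 0, with 1 panel per gene. Numbered points are libraries, and bars show the group mean with SD (n = 3) for ALPI, ALPP and ALPG; ALPI runs from 96.2 to 118 CPM in the controls and from 35.3 to 41.9 CPM in the treated libraries, and ALPL is above 0 in control 2 alone.

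Although the amount of alkaline phosphatase RNA differed between the groups, the ranges of each gene's share of it overlapped between the groups. Reads of all 4 genes together numbered 4856, 5176 and 4791 in the controls and 1621, 1536 and 1911 in the treated libraries. ALPI made up 78.7 ± 0.80% of them in the controls (SD, n = 3; 77.8 to 79.4%) and 80.0 ± 0.72% in the treated cells (79.2 to 80.5%). The ranges overlapped, and the 95% Wilson interval of a single library was as wide as 78.5 to 82.4% in treated library 2. ALPP made up 20.3 ± 1.04% and 18.8 ± 1.49% (SD, n = 3 each), again with overlapping ranges of 19.1 to 21.0% and 17.9 to 20.5%. ALPG took 0.96 ± 0.43% in the controls and 1.22 ± 0.80% in the treated cells (SD, n = 3 each).

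Per kilobase the order in the means of both groups was ALPI, ALPP, ALPG and ALPL. ALPI had 39.7 ± 4.36 CPM per kilobase in the controls and 14.6 ± 1.26 in the treated cells. ALPP had 8.79 ± 0.485 and 2.96 ± 0.352 CPM per kilobase, and ALPG 0.523 ± 0.268 and 0.237 ± 0.160 (SD, n = 3 each). Neighbours in the order ALPI, ALPP and ALPG were apart in every library. ALPP relative to ALPI, per kilobase, was 22.7, 20.7 and 23.3% in the controls and 19.3, 19.1 and 22.3% in the treated libraries. The ranges overlapped, because treated 3 lay above control 2. ALPG relative to ALPP ranged from 2.80 to 8.19% in the controls and from 1.88 to 12.2% in the treated libraries, the widest spread of any pair.

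**Figure D2:**
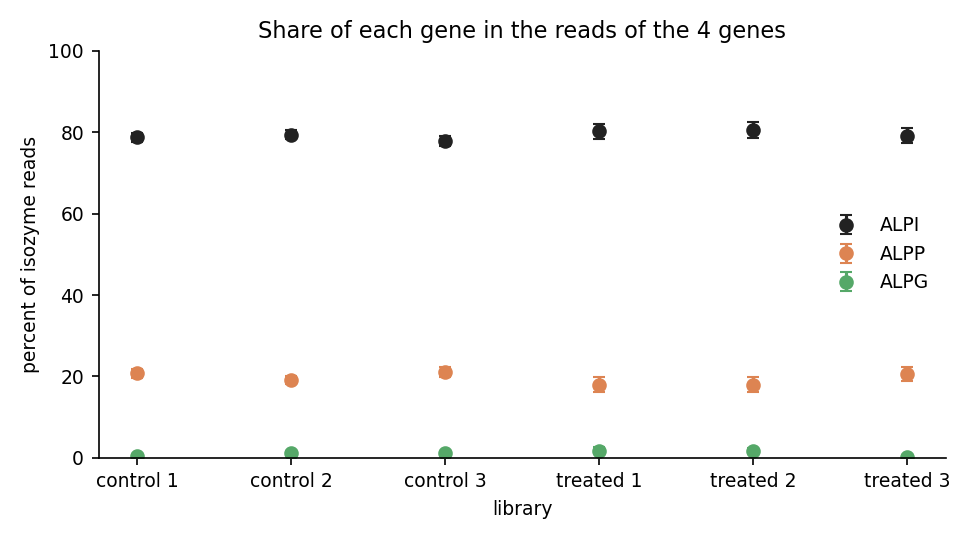
Share of the reads of all 4 alkaline phosphatase genes that fell on ALPI, ALPP and ALPG in each library, in percent, with 95% Wilson intervals that cover counting error only. ALPI holds 77.8 to 80.5% of the reads in every library of both groups; ALPL, at 0.19% in control 2 and 0 elsewhere, is not drawn.

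How far reads of the copies can be told apart bears on these splits. Of all windows of 100 bases along the longest transcript, 0% of ALPI windows and 0% of ALPL windows occurred exactly in another gene. For ALPP the share was 13.2% and for ALPG 15.8%, in each case shared with the other of the pair. At 50 bases the shares were 1.52% for ALPI, 26.2% for ALPP and 29.3% for ALPG, and at 150 bases 0, 7.05 and 8.49%. The read length and the treatment of reads that match more than 1 place were not given in the sources used here, which leaves the low ALPG count and its split from ALPP uncertain. With the reads of ALPP and ALPG summed into 1 feature, the log2 fold change was -1.55, and with all 3 clustered genes summed it was -1.47.

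The levels of ALPI and ALPP followed each other across the libraries. Pearson's r of their log2 CPM was 0.9932 over the 6 libraries, which include the difference between the groups. Among the 10693 protein-coding genes whose mean log2 CPM was 1 or more, the patterns most like that of ALPI were those of SGCE, a sarcoglycan (r = 0.9941), of ALPP, and of SMAD3, a transducer of TGF-beta signals (0.9927). For ALPP they were those of TPX2, a spindle assembly factor (0.997), DBP, a clock-controlled transcription factor (0.9966), and P3H2, a collagen prolyl hydroxylase (0.9956), and 8 genes were closer to it than ALPI. ALPG stood apart, with r of 0.631 to ALPI and 0.5532 to ALPP. Its closest patterns were those of FOXC2, ANKH and HOXC11, at 0.9795, 0.9718 and 0.9694. With 6 libraries and 10693 candidates, the top of such a ranking is high by construction, and the values are a description.

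SGCE was lower in the treated cells (25.2 ± 0.592 against 14.6 ± 1.24 CPM, SD, n = 3 each), with a log2 fold change of -0.79 ± 0.14 that became -0.22 and lost its call with the correction (adjusted p = 0.384, edgeR quasi-likelihood test, Benjamini-Hochberg adjusted). SMAD3 had 41.3 ± 1.14 and 34.0 ± 1.18 CPM and did not pass the threshold. The changes of DBP (log2 fold change -1.15 ± 0.14), P3H2 (-0.85 ± 0.13) and TPX2 (-0.56 ± 0.10) passed it with and without the correction. The log2 fold changes of ALPI (-1.44) and ALPP (-1.57) were larger in size than those of these 5 genes. ALPI and ALPP were picked with this contrast known, and r takes no account of size, so nothing is read from this.

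The tested neighbours of the cluster went in both directions, and the counts depended on the processing. Of 13 protein-coding genes within 500 kb of the 3 genes, 9 were tested, 5 were higher and 1 was lower, with a median log2 fold change of 0.31 against -0.05 over all genes tested, of which 15% were higher and 18.7% lower. The gene that fell was PRSS56, a serine protease gene 60.4 kb from ALPI, with 15.9 ± 2.18 and 10.1 ± 0.589 CPM (log2 fold change -0.65 ± 0.17, adjusted p = 0.00598, edgeR quasi-likelihood test, Benjamini-Hochberg adjusted). Its control libraries had 18.2, 13.8 and 15.6 CPM and its treated libraries 10.3, 9.49 and 10.6, with no overlap. With the GC and length correction its log2 fold change was -1.17 (adjusted p = 6.3e-05, edgeR quasi-likelihood test, Benjamini-Hochberg adjusted). ECEL1, an endopeptidase gene 19.8 kb away and the nearest tested neighbour, did not pass the threshold (log2 fold change 0.16 ± 0.59).

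The 5 higher neighbours lay on both sides of the cluster. DIS3L2, an exonuclease gene 34.2 kb from ALPP on the side away from ALPI, had a log2 fold change of 0.40 and was called higher. On the side of ALPI, the translation factor EIF4E2, 90.0 kb away, was called at 0.31, the mitochondrial calcium-binding protein EFHD1 at 1.28 ± 0.39 (146 kb), SNORC at 0.64 (397.2 kb) and NGEF at 0.47 ± 0.10 (418.7 kb). NGEF had 60.5, 65.7 and 65.8 CPM in the controls and 89.0, 89.6 and 87.4 in the treated libraries. With the GC and length correction EIF4E2 alone of the neighbours was higher, at 0.49, and PRSS56 alone was lower. Without that correction, the count of higher neighbours was 3 without control 1 and 4 without control 2. It was 2 without control 3, without any 1 of the treated libraries, or with the replicate number as a block in the fit. TIGD1 (-0.40) and GIGYF2 (-0.39) did not pass the threshold, GIGYF2 doing so without control 2 (-0.47) or treated 3 (-0.55). The receptor genes CHRND and CHRNG, the channel gene KCNJ13 and NPPC did not pass the filter.

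ALPL's neighbourhood on chromosome 1 had transcribed genes on both sides of it. Of 11 protein-coding genes within 500 kb, 8 were tested, 1 was higher and 1 lower, against 15% and 18.7% of all genes tested, and with the correction 0 were higher and 2 lower, USP48 and ECE1. RAP1GAP, a GTPase activator of Rap 17.8 kb away, rose from 45.0 ± 6.37 to 69.4 ± 7.96 CPM (SD, n = 3 each), with a log2 fold change of 0.63 ± 0.12. Its call was lost with the correction (0.27, adjusted p = 0.0586, edgeR quasi-likelihood test, Benjamini-Hochberg adjusted). USP48, a deubiquitinase 99.9 kb away, fell from 25.6 ± 5.75 to 15.6 ± 0.946 CPM, by 0.71 ± 0.16 on the log2 scale. NBPF3 (0.54), HSPG2 (0.36), AL031281.2 (0.97), CDC42 (-0.43), EIF4G3 (-0.23) and ECE1 (-0.02) did not pass the threshold. ECE1 was called lower with the correction (-0.32, adjusted p = 0.00883, edgeR quasi-likelihood test, Benjamini-Hochberg adjusted). AL031281.2 overlaps CDC42, so the split of their reads is uncertain.

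**Figure D3:**
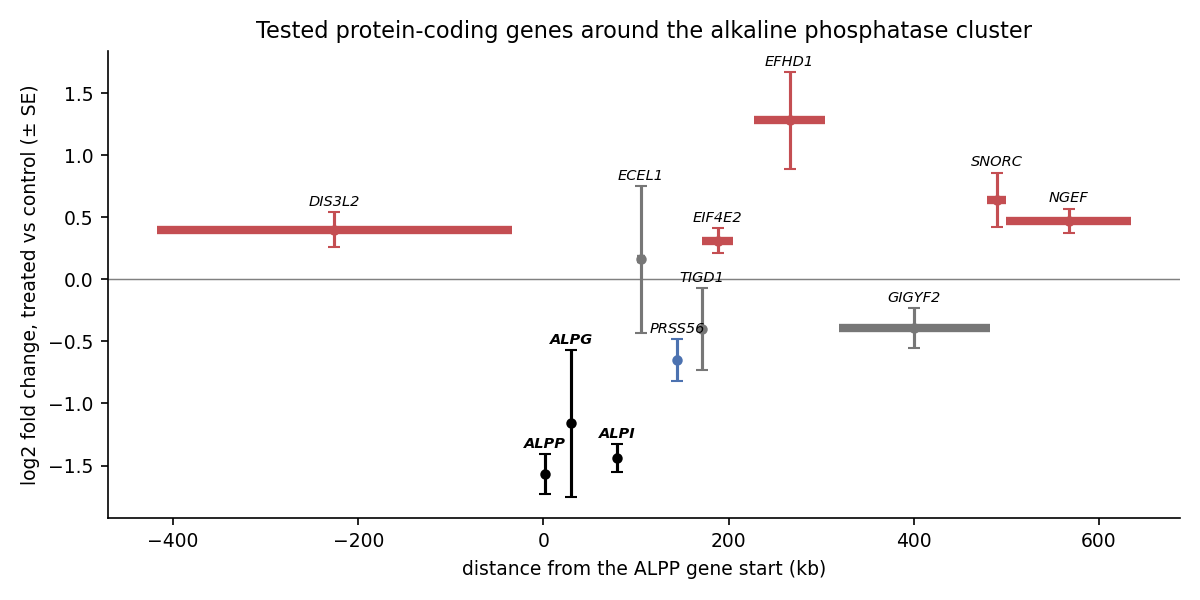
Log2 fold change, treated against control, of the tested protein-coding genes within 500 kb of the cluster, against distance in kb from the start of ALPP; vertical bars are SE, horizontal bars the extent of a gene, and red, blue and grey mark higher, lower and neither. ALPI (-1.44) and ALPP (-1.57) lie below all of the tested neighbours of the cluster, of which the lowest is PRSS56 at -0.65.

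The genes that supply or share the work of alkaline phosphatases were grouped by role. The counts below are to be read against the 15% of all genes tested that were higher and the 18.7% that were lower, or 5.41% and 5.57% with the GC and length correction. Among 17 tested genes of phosphate, pyrophosphate and vitamin B6 handling, 3 were higher, a share near that of all genes (15%), and 5 lower (18.7% over all genes), with a median log2 fold change of -0.13. PPA1, the cytosolic pyrophosphatase, fell from 149 ± 28.9 to 89.9 ± 7.05 CPM (SD, n = 3 each), with a log2 fold change of -0.73 ± 0.12, and its mitochondrial counterpart PPA2 fell by 0.55 ± 0.14 on the log2 scale. AOX1, an aldehyde oxidase that converts pyridoxal to pyridoxic acid, fell by 0.82 ± 0.18, and PLPBP, a pyridoxal phosphate-binding protein, by 0.83 ± 0.21. ANKH, which carries pyrophosphate precursors out of cells, had 316 ± 6.05 and 306 ± 13.4 CPM and did not pass the threshold. With the GC and length correction 0 genes of the list were higher and 3 lower, and PPA1 and PPA2 lost their calls while AOX1 and PLPBP did not. Without control 1 or treated 3 no gene of the list was higher.

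Genes of extracellular nucleotide breakdown and signalling, a pathway in which alkaline phosphatases act beside CD73, were higher in 7 of 14 tested, against 15% of all genes tested. None was lower by edgeR, DESeq2 or limma-voom, and 2 had an unadjusted p under 0.05 in the lower direction by edgeR. The median log2 fold change was 0.46. P2RX4, an ATP-gated channel, had 16.4, 17.3 and 19.4 CPM in the controls and 30.9, 32.9 and 24.2 in the treated libraries (log2 fold change 0.73 ± 0.15). ADA, adenosine deaminase, rose from 54.1 ± 4.54 to 78.5 ± 9.56 CPM (0.54 ± 0.11). AK1, an adenylate kinase (0.62 ± 0.18), and ENTPD2, an ectonucleotidase (0.59 ± 0.17), were also called. With the correction 2 genes remained higher, P2RX4 and ADA, and the list's median was 0.19. Without control 1 the count was 3, and without treated 3 it was 4. Without control 2 there were 2 lower genes. NT5E, which encodes CD73 itself, had 108 ± 16.7 and 90.7 ± 7.56 CPM and did not pass the threshold, although it did without control 2 (log2 fold change -0.35). SLC29A1, a nucleoside transporter, did not pass it either (0.19 ± 0.10).

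Alkaline phosphatases receive their zinc in the secretory pathway. All 5 listed genes of zinc transport were tested, and not each of them is a supplier of zinc to these enzymes. SLC39A13 was higher (log2 fold change 0.37 ± 0.10) and SLC30A6, a partner in zinc loading of these enzymes, was lower (-0.65 ± 0.20). Both calls were lost with the correction, without control 3 and without treated 1. The call of SLC30A6 was also lost without control 1 and without treated 3. SLC39A7 did not pass the threshold (0.14 ± 0.10).

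Of 29 tested genes of GPI anchor synthesis 5 were higher and 5 lower, shares near those of all genes tested (15% and 18.7%). The median log2 fold change was -0.08, and after the correction 2 were higher and 1 lower. PIGK, the catalytic subunit of the transamidase that attaches the anchor, had 24.1, 19.7 and 18.1 CPM in the controls and 8.69, 8.41 and 11.2 in the treated libraries. The groups did not overlap, and the log2 fold change was -1.13 ± 0.17 (adjusted p = 1.4e-04, edgeR quasi-likelihood test, Benjamini-Hochberg adjusted), or -0.56 with the correction (adjusted p = 0.0170). The dolichol-phosphate mannose synthase subunits differed in direction, DPM1 falling by 0.67 ± 0.12 on the log2 scale and DPM2 rising by 0.50 ± 0.11. PIGQ, of the enzyme that starts the anchor, rose by 0.53 ± 0.12, and PIGS, another transamidase subunit, did not pass the threshold (0.09). With the correction DPM1 and PIGQ lost their calls.

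Among 25 tested genes of other GPI-anchored proteins, 9 were higher and 6 lower, against 15% and 18.7% of all genes tested. The median log2 fold change was -0.02, and with the correction 0 were higher and 5 lower. CD55, which restrains complement on the cell surface, fell from 598 ± 45.3 to 320 ± 7.25 CPM (SD, n = 3 each; log2 fold change -0.90 ± 0.10, and -0.45 with the correction). The prion protein gene PRNP (-0.61), the prostate stem cell antigen gene PSCA (-0.55) and CD109 (-0.76), a surface antigen, also fell, CD109 without a call after the correction. BST2, or tetherin, did not pass the threshold (0.14). Of 14 tested genes of other phosphomonoesterases 4 were higher and 3 lower (15% and 18.7% over all genes), with a median log2 fold change of 0.07, and after the correction 2 were higher and 0 lower. Among cytosolic nucleotidases NT5C rose by 0.57 ± 0.13 on the log2 scale, NT5C3A fell by 0.81 ± 0.19 and NT5C2 by 0.66 ± 0.17, and all 3 calls were lost with the correction. The acid phosphatase ACP1 fell by 0.40, also without a call after the correction.

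**Figure D4:**
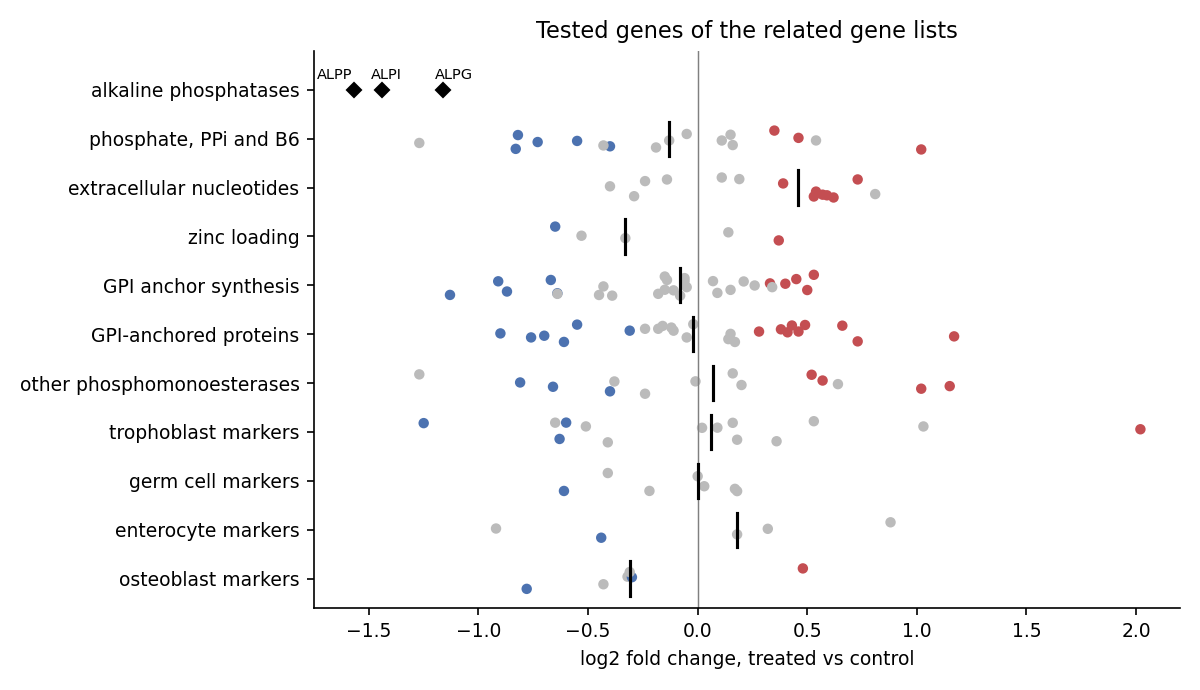
Log2 fold change of every tested gene of each list as a point, with the list's median as a short black bar, red and blue for genes called higher and lower, grey for the rest, and a line at 0. The extracellular nucleotide list has the highest median of the role lists, at 0.46, and the lists of GPI anchor synthesis and GPI-anchored proteins have medians of -0.08 and -0.02.

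Markers of the tissues in which each isozyme is known did not all accompany it. Of 25 enterocyte markers 13 had 0 reads in every library and 5 were tested, although the intestinal isozyme gene was the most abundant of the 4. ANPEP, a brush-border aminopeptidase, had 315, 491 and 486 CPM in the controls and 564, 463 and 584 in the treated libraries, and the groups overlapped. Its log2 fold change of 0.32 ± 0.14 did not pass the threshold in the main edgeR fit, but passed it, as higher, in 6 of 18 alternatives. Among these were fits without control 2 (0.44) and without treated 2 (0.42). With all libraries, edgeR with RLE scaling, with no low-count filter or with the length correction also called it. The log2 fold change was 0.03 with the GC and length correction. KLF4, a transcription factor of surface epithelia, was lower (log2 fold change -0.44 ± 0.16, adjusted p = 0.0448, edgeR quasi-likelihood test, Benjamini-Hochberg adjusted), a call that was lost without any single library other than control 2. None of the 5 was higher in the main edgeR fit or by limma-voom, 1 (ANPEP) was by DESeq2, and 1 had an unadjusted p under 0.05 by edgeR. With the correction 0 were higher and 2 lower, KLF4 and CDHR5.

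Trophoblast markers were tested in 14 of 30 cases, and the others did not pass the filter, 5 of them with 0 reads in every library. Of the 14, 1 was higher and 3 lower, against 15% and 18.7% of all genes tested, with a median log2 fold change of 0.06. With the correction the counts were also 1 and 3. CGA, the alpha subunit of chorionic gonadotropin, had 104, 104 and 104 CPM in the controls and 43.3, 42.6 and 44.9 in the treated libraries, a log2 fold change of -1.25 ± 0.10 (-0.84 with the correction). ALPP, the placental isozyme gene, was lower in the treated libraries too. The marker list and ALPP were chosen with earlier results of these data known, so nothing is read from this shared direction. GATA2 fell from 124 ± 14.2 to 82.1 ± 4.50 CPM (log2 fold change -0.60 ± 0.11), and TFAP2A, another trophoblast transcription factor, by 0.63 ± 0.16, without a call when control 3 was left out. CGB8, a beta subunit gene with near-identical copies whose reads may be split among them, was at 0.349 ± 0.117 and 1.42 ± 0.0789 CPM and called higher (2.02 ± 0.52). TEAD4 did not pass the threshold (0.16).

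Germ-cell and pluripotency markers were tested in 7 of 19 cases, and 10 of the 19 had 0 reads throughout. SALL4 was lower (-0.61 ± 0.23, adjusted p = 0.0481, edgeR quasi-likelihood test, Benjamini-Hochberg adjusted), a call that DESeq2 and every library left out other than control 2 ended, as did the correction (adjusted p = 0.0570), and TFAP2C did not pass the threshold (0.18). None was higher by edgeR without the correction, DESeq2 or limma-voom, or at an unadjusted p under 0.05 by edgeR. With the correction 1 was higher, PRDM1, a regulator of germ-cell specification. Of 14 osteoblast markers, 5 had 0 reads in every library and 6 were tested. Of these 6, 1 was higher and 2 lower, and with the correction 0 and 1. BMP2, a bone morphogen, fell from 21.2 ± 0.944 to 12.3 ± 0.488 CPM (log2 fold change -0.78 ± 0.15, and -0.86 with the correction), SPARC was lower (-0.30) and COL1A1 higher (0.48), both without a call after the correction. RUNX2, the osteoblast transcription factor, did not pass the threshold (-0.32).

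**Figure D5:**
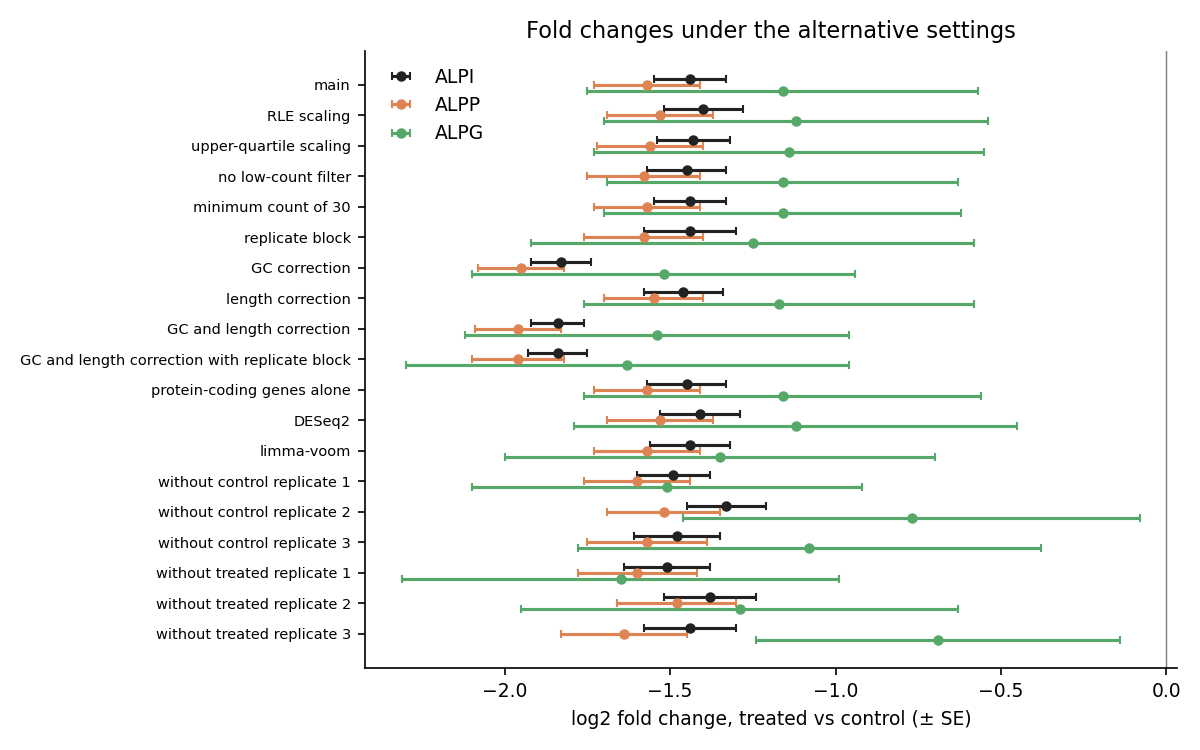
Log2 fold change of ALPI, ALPP and ALPG under the main processing (top) and each alternative; bars are SE. ALPI stays between -1.84 and -1.33 and ALPP between -1.96 and -1.48, while ALPG runs from -1.65 to -0.69.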

How the data were processed

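Expression was measured by RNA-seq in 3 EPZ-5676-treated and 3 control samples of SW1990. Poly(A) RNA was selected with oligo(dT) beads and the libraries are stranded by dUTP, per the labels' protocols. The aligner was HISAT2 2.2.1 and the build GRCh38, per the submitters' processing notes. The authors deposited raw, whole-number read counts per gene, with no normalization. The counter, the strand setting it used and the release of the annotation were not given in the sources used here. Coordinates of each of the 58735 genes are those of GENCODE release 29.

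The 4 genes and the gene lists were chosen with earlier results of these data known. The main test was edgeR 4.0.16 (R 4.3.3) on the counts, with filterByExpr at a minimum count of 10, TMM scaling, the robust two-sided quasi-likelihood test, and a Benjamini-Hochberg adjusted p under 0.05 over 15496 genes. Each SE is the log2 fold change over the root of its F statistic. Library totals of 33970420 to 39749648 reads set the counting precision. Genes named from a list were up to 4 called genes with the smallest p and the most expressed gene not past the threshold. Every tested protein-coding neighbour within 500 kb and the 3 most alike genes per isozyme gene were also named. Marker and blood-cell genes used to describe the libraries are given as levels. CDHR5 and PRDM1 were named after their values were seen.

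The GC and length correction fitted natural splines (5 degrees of freedom for each property) to how far each gene's log2 CPM (prior count 2) lay from its mean in each library and entered the fit as an offset, with 59 genes lacking a transcript sequence set at the median. GC alone, length alone, the blood-cell list and the motifs TTTAAA and AGGTCA were added after seeing the data. Other alternatives were RLE and upper-quartile scaling, other filters, protein-coding genes alone, DESeq2 1.42.0, limma-voom 3.58.1, a replicate block and each library left out. Start regions come from RefSeq (GRCh38.p14) and were aligned with Biopython 1.88. Plots were made in matplotlib 3.10.9 under Python 3.11.15.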

Additional observations from a re-analysis of the deposited data

How the results depend on the processing

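ALPI, ALPP and ALPG kept their direction under all alternatives run. ALPI was at -1.83 with the GC correction, -1.84 with GC and length and -1.84 with GC, length and the replicate block, and ALPP at -1.95, -1.96 and -1.96 (log2 fold changes). Leaving out 1 library gave -1.51 to -1.33 for ALPI, -1.64 to -1.48 for ALPP and -1.65 to -0.69 for ALPG. Over the whole table the same 3 corrections gave 761, 838 and 688 higher and 730, 863 and 685 lower genes, and in the lists and neighbourhoods 9, 10 and 8 higher and 16, 18 and 16 lower, against 39 and 31 of 161 tested. Leaving out 1 library gave 1350 to 2780 higher and 1753 to 3167 lower genes over the table, lowest without treated 1 and without control 1, with 1884 lower without treated 1, and 22 to 40 higher and 24 to 37 lower in the lists, where the higher count was 24 without control 1 and 22 without treated 1.

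Replicate numbers are shared by the groups. Same-numbered libraries showed no common deviation (r of -0.111, -0.093 and 0.047), and r ran from -0.08 to 0.155 between libraries of different numbers. With 3 samples a group these values cannot decide whether the numbers pair the samples. The replicate block gave 1677 higher and 2219 lower genes, ALPI at -1.44, ALPP at -1.58 and ALPG at -1.25.

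Some genes named above without a firm call changed sign with the GC correction, the GC and length correction, and that with the block: ANKH (0.18 in each, and with length alone), SLC29A1 (-0.06, -0.08, -0.07), SLC39A13 (-0.03, -0.04, -0.04), SLC39A7 (-0.05, -0.06, -0.06), BST2 (-0.13, -0.11, -0.11), NT5E (0.04 in each), TEAD4 (-0.18 in each), HSPG2 (-0.06, -0.02, -0.03), ECEL1 (-0.31, -0.32, -0.30) and, in the corrections without the block, EIF4G3 (0.0 in both). ECEL1 was also at -0.24 without control 3, and over all libraries left out it ran from -0.54 without treated 1 to 0.46 without treated 3. ECE1, which was at -0.31 with the GC correction and -0.32 with GC and length, was at 0.02 with RLE scaling, 0.12 with the length correction, 0.01 with DESeq2, and at 0.07, 0.02 and 0.01 without control 2, control 3 and treated 2. The cause was not tested. Depth limits ALPG and ALPL, with 6 to 66 and 0 to 10 reads per library. With 3 samples a group, and no statement that they are separate cultures, the spread may be technical.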
